A study of Homo sapiens with 6 samples.

Results

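The high-numbered miRNAs are the miRNAs whose name carries a number of 1000 or above, such as miR-1307 or miR-3615. They were picked out of the table of miRNA read counts by name alone, and miR-1246 and miR-1290 were left out. They numbered 150 of the 471 names in the table, and 1 of the 150 rows carried 2 names for a shared sequence (miR-3180 and miR-3180-3p). The counts came from small extracellular vesicles (EVs) of Cal27 spheroids, grown from a human tongue squamous carcinoma cell line in Matrigel, a gel of basement membrane proteins. EV_soft were EVs from spheroids in 3 mg/mL Matrigel and EV_stiff those from spheroids in 12 mg/mL Matrigel, both from medium of day 14, with 3 libraries in each group. All libraries came from a single cell line with no added drug or genetic change named in the labels, and the labels call the 3 samples of a group biological replicates. The comparison asks whether the stiffness of the matrix goes with the level of these miRNAs among the EV miRNAs. The groups differed in Matrigel concentration, so stiffness cannot be told apart from the amount or the structure of the gel.

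A miRNA is cut from a hairpin transcript by Drosha with its partner DGCR8, and then by Dicer, and it guides Argonaute to mRNAs mainly through its seed, bases 2 to 8 from the 5′ end. Numbers were given to miRNAs in the order in which they were reported. Low numbers thus went mostly to abundant and conserved miRNAs, and high numbers mostly to miRNAs found later by deep sequencing, many of them found only in primates, cut from introns without Drosha (mirtrons), or close in sequence to other kinds of RNA. EVs carry miRNAs out of the cell, and a count in an EV library is relative to the other miRNAs of that library. In bulk EV samples, fewer EVs with a given miRNA and less of it per EV cannot be told apart.

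Of the 150 high-numbered miRNAs, 6 had 30 or more reads summed over the 6 libraries, and together they held 69.7% of the 1945 reads of the class. Their mature sequences from RefSeq are shown because they held most reads of the class and include every member that could be tested, with the seed in capitals.
miR-1307-3p: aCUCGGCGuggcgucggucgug
miR-1180-3p: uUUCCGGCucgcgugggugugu
miR-2110: uUGGGGAAacggccgcugagug
miR-3615: uCUCUCGGcuccucgcggcuc
miR-7706: uGAAGCGCcugugcucugccgaga
miR-1908-5p: cGGCGGGGacggcgauugguc
The 6 seeds are all different, and none is the seed of another name of the table that had a RefSeq sequence. Each of the 6 sequences was rich in G and C, from 62.5% for miR-7706 to 76.2% for miR-1908-5p.

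The total miRNA count was between 39211 and 66345 in EV_soft libraries and between 28688 and 30685 in EV_stiff libraries, so that the stiff libraries held 0.588 times as many miRNA reads. A count of 0 allows up to 3 counts, which is between 45.2 and 105 CPM (counts per 1000000 miRNA reads) depending on the library, for counting error only. The labelled cell type was checked against miR-205-5p, miR-203a-3p, miR-200c-3p and miR-141-3p, miRNAs of squamous and other epithelia. All 4 had reads, 7537, 361, 5200 and 64 in that order, so that miR-205-5p and miR-200c-3p gave most of them. Their sum was between 53990 and 62715 CPM in EV_soft and between 46040 and 48592 CPM in EV_stiff. Of miRNAs of other sources, 3 myeloid markers summed to at most 69.7 CPM and 4 detected stromal markers (of 5) to at most 168. The 2 detected red blood cell markers (of 4), miR-451a and miR-486-5p, summed to between 358 and 1917, and the liver miRNA miR-122-5p lay between 2788 and 7285. Every pair of libraries differed by more than sampling noise, with a chi-square of 3.40 or more per degree of freedom, so that none was taken for a copy.

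The high-numbered miRNAs made up 31.8% of the names and under 1% of the reads in every library. Their summed share was 0.829%, 0.765% and 0.817% of the miRNA counts in EV_soft replicates 1, 2 and 3. It was 0.864%, 0.666% and 0.899% in EV_stiff replicates 1, 2 and 3. Replicate 2 of EV_stiff was the lowest of all 6 libraries and replicate 3 of EV_stiff the highest, and the groups overlapped. The means were 0.804% ± 0.0338 (SD, n = 3) in EV_soft and 0.809% ± 0.126 (SD, n = 3) in EV_stiff, which differ by less than the spread between replicates. For comparison, miR-1246 and miR-1290, which the definition leaves out, made up 1.46% ± 0.0326 (SD, n = 3) in EV_soft and 2.01% ± 0.113 (SD, n = 3) in EV_stiff, with no overlap.

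In reads, the class summed to 380, 300 and 542 in the EV_soft libraries and to 265, 191 and 267 in the EV_stiff libraries. Pooled over each group these were 1222 and 723 reads, a ratio of 0.592 that lay beside the ratio of 0.588 of the library totals. The miRNAs numbered below 1000 gave a ratio of 0.585. The single most abundant member, miR-1307-3p, held 36.8%, 36.7% and 39.3% of the reads of the class in EV_soft and 31.3%, 20.4% and 41.6% in EV_stiff. Without it the summed share was 0.523%, 0.485% and 0.496% in EV_soft and 0.593%, 0.530% and 0.525% in EV_stiff. The groups then did not overlap, but EV_soft replicate 1 at 0.523% and EV_stiff replicate 3 at 0.525% nearly met. The means were 0.501% ± 0.0199 (SD, n = 3) and 0.549% ± 0.0380 (SD, n = 3).

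The number of high-numbered miRNAs with a read was 50, 52 and 67 in EV_soft and 44, 46 and 46 in EV_stiff, and the groups did not overlap. Lower-numbered miRNAs with a read were also fewer in EV_stiff without overlap, at 227 ± 12.8 (SD, n = 3) in EV_soft and 200 ± 4.93 (SD, n = 3) in EV_stiff. The library with the most names, EV_soft replicate 3, was also the one with the most reads. When the number expected at 28688 counts, the smallest total, was computed for each library, it was 40.8, 44.6 and 45.8 in EV_soft and 42.9, 46 and 45.2 in EV_stiff. At this equal depth the means were 43.7 ± 2.59 (SD, n = 3) and 44.7 ± 1.63 (SD, n = 3), and the groups overlapped. The lower-numbered miRNAs had 206 ± 1.27 (SD, n = 3) and 199 ± 5.65 (SD, n = 3) names at that depth, and their groups did not overlap.

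**Figure D1:**
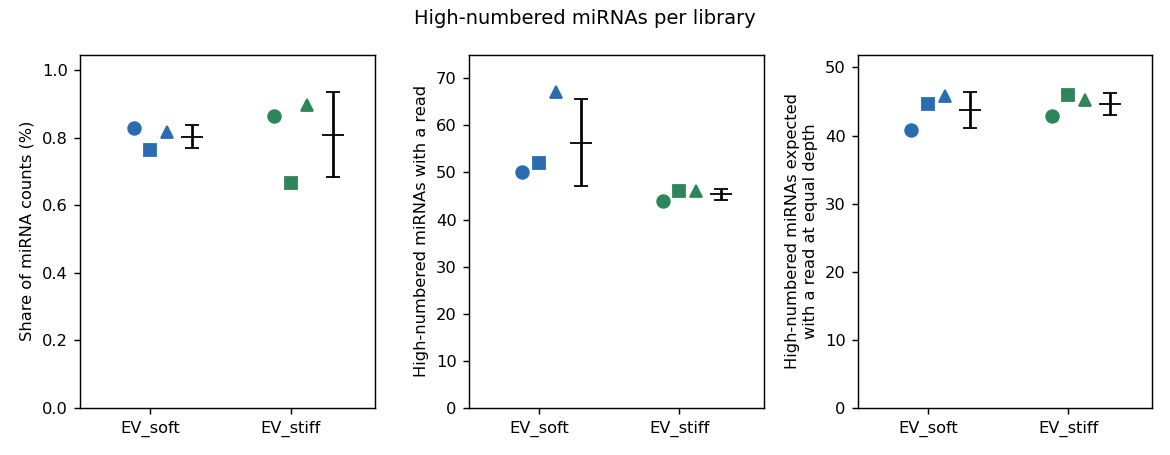
Summed share of the miRNA counts in percent (left), number of high-numbered miRNAs with a read (middle) and number expected with a read when every library is reduced to 28688 counts (right), for each library. Circles, squares and triangles are replicates 1, 2 and 3, and the black marks are the mean and SD of 3 libraries. The EV_soft libraries had more names in the middle panel, and the groups overlap in the other panels.

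Most of these miRNAs were at the edge of detection. Their median was 2 reads over the 6 libraries, against 17 for the lower-numbered miRNAs, and 129 of the 150 had fewer than 10 reads. A single library held all the reads of 87 of them, 58% of the class, against 19.7% of the lower-numbered names. Only 8 had a read in all 6 libraries, 5.33% of the class against 43.3%. In EV_soft alone 54 were seen, in EV_stiff alone 43, in both groups 52, and miR-4318 had no read. EV_soft thus held 55.7% of the names seen in a single group, beside 63.0% of all miRNA reads, and it held 68.2% of the lower-numbered names seen in a single group.

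**Figure D2:**
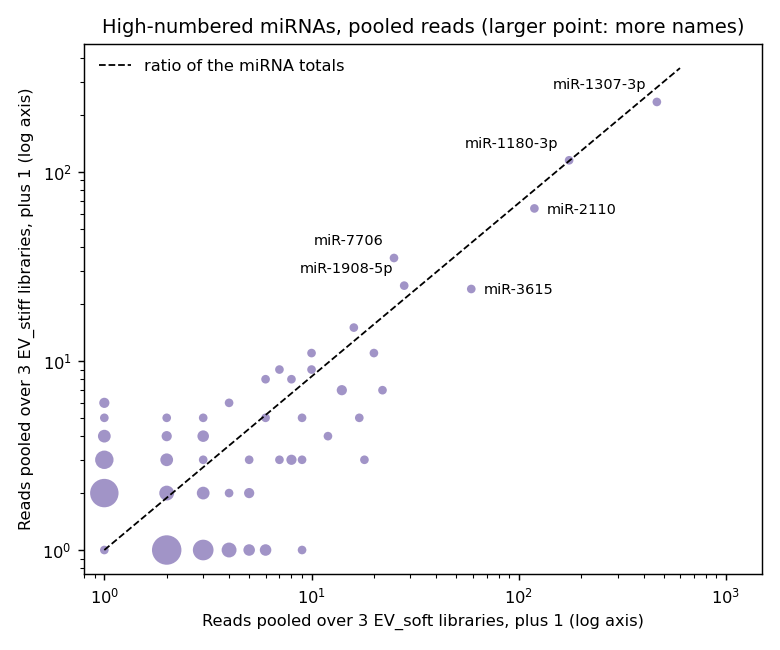
Reads of each high-numbered miRNA pooled over the 3 EV_soft libraries (x axis) and the 3 EV_stiff libraries (y axis), each plus 1 on log axes. Larger points stand for more names with the same values, and the dashed line is the ratio of the library totals, 0.588. Most names lie at the lower left with few reads, and those with 30 or more reads, which carry their names, lie on both sides of the line.

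By the first digit of their numbers, all of 4 digits, the 27 names that begin with 1 held 62.5% of the reads of the class, with 781 reads in EV_soft and 434 in EV_stiff. The 3 names that begin with 2 held 9.46%, nearly all from miR-2110. The 42 that begin with 3 held 14.2%, with 167 and 109 reads. The 34 that begin with 4 held 4.99% (59 and 38 reads), and the 34 that begin with 6 held 5.14% (63 and 37 reads). Each of these last groups thus held more names than the first but few reads. The 6 names that begin with 7 had 30 reads in EV_soft and 36 in EV_stiff, and miR-7706 gave 24 and 34 of these. The 4 that begin with 5 had 7 reads in all.

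For the test of single miRNAs, 105 of the 471 names passed edgeR's filter on low counts, and 4 of the 150 high-numbered miRNAs were among them (2.67%, against 31.3% of the lower-numbered names). The other 146 were too low to test. A call needed a log2 fold change beyond 0.58 in either direction together with an adjusted p no higher than 0.05. None of the 4 was called with edgeR's quasi-likelihood test, and 0 of the 4 had an unadjusted p under 0.05. Over all 105 tested, 19 were called, which is 18.1%, and 42 had an unadjusted p under 0.05 in that test. DESeq2, limma-voom and edgeR's likelihood ratio test also called 0 of the 4. Fitted with no filter, 0 of 149 high-numbered miRNAs and 15 of all 464 (3.23%) were called. Of these 149, 128 had only 1 to 9 reads, so a call was hardly possible and the 0 says little about them. The log2 fold changes of the 4 had a median of -0.09 beside -0.04 over all 105, and they ranged from -0.47 to 0.20. The CPM after TMM normalization, the scale used for single miRNAs from here on, of the 2 groups overlapped for all 4, where 47.6% of the 105 did not overlap.

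The most abundant, miR-1307-3p, ranked 36 in the table and comes from a hairpin on chromosome 10 of GRCh38.p14 (bases 103394253 to 103394401) inside an exon of ATP5MK, which encodes a small subunit of mitochondrial ATP synthase. It had 140, 110 and 213 reads in EV_soft and 83, 39 and 111 in EV_stiff. Replicate 2 of EV_stiff was the lowest and replicate 3 of EV_stiff the highest once scaled to the library, at 1382 and 3945 CPM, with the EV_soft libraries between 2674 and 3135 CPM. The means were 2947 ± 242 CPM (SD, n = 3) and 2684 ± 1282 CPM (SD, n = 3), and the log2 fold change was -0.14 (standard error 0.30, 95% interval from -0.81 to 0.54, adjusted p = 0.771). The spread in EV_stiff was 47.8% of the mean where counting alone gives 11.3%, and in EV_soft it was 8.22% where counting gives 8.05%. Without EV_stiff replicate 2 the log2 fold change was 0.19 (adjusted p = 0.584), so its direction rests on that library. The other arm, miR-1307-5p, had 4 reads in all, 1 in EV_soft and 3 in EV_stiff.

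The hairpin of miR-1180 covers bases 19344506 to 19344574 of chromosome 17, inside an intron of B9D1, a gene of the base of the cilium. Its 3p arm had 56, 51 and 67 reads in EV_soft and 45, 35 and 34 in EV_stiff. The level was 1146 ± 139 CPM (SD, n = 3) and 1309 ± 147 CPM (SD, n = 3), a log2 fold change of 0.20 (standard error 0.23, 95% interval from -0.32 to 0.72, adjusted p = 0.545). The EV_soft libraries lay at 1213, 1240 and 986 CPM and the EV_stiff libraries at 1478, 1240 and 1208 CPM, so that the groups overlapped. The spread between replicates was 12.2% and 11.2% of the mean, below the 13.1% and 16.2% that counting alone gives.

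The sequence of miR-2110 covers bases 114174151 to 114174172 of chromosome 10, inside an exon of CCDC186, a gene of secretory vesicles. Its reads were 45, 18 and 55 in EV_soft and 20, 15 and 28 in EV_stiff. Replicate 2 was the lowest library in both groups, at 437 and 532 CPM. The means were 741 ± 275 CPM (SD, n = 3) and 728 ± 240 CPM (SD, n = 3), a log2 fold change of -0.04 (standard error 0.37, 95% interval from -0.86 to 0.78, adjusted p = 0.963). The sign of so small a value turned in 7 of 16 alternative analyses.

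The hairpin of miR-3615 covers bases 74748613 to 74748699 of chromosome 17, inside an exon of NHERF1, which encodes a scaffold protein of the cell membrane. It had 17, 13 and 28 reads in EV_soft and 7, 7 and 9 in EV_stiff. The EV_soft libraries lay at 368, 316 and 412 CPM and the EV_stiff libraries at 230, 248 and 320 CPM, so that only the lowest soft and the highest stiff library overlapped. The log2 fold change was -0.47 (standard error 0.39, 95% interval from -1.34 to 0.39, adjusted p = 0.395), the largest in size of the 4. It was below 0 in the 15 alternative analyses that tested it, between -1.32 and -0.37, and was called in none of them.

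**Figure D3:**
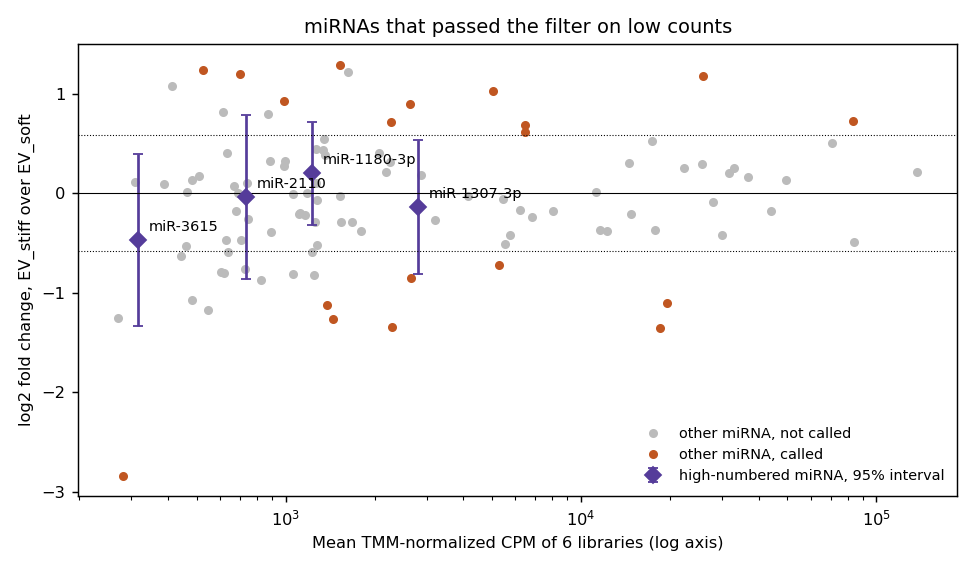
Log2 fold change of EV_stiff over EV_soft against mean CPM (log axis) for the 105 miRNAs tested. Diamonds are the 4 high-numbered miRNAs with 95% intervals, orange points are other miRNAs that were called, grey points those that were not, and dotted lines mark a log2 fold change of 0.58 in either direction. The intervals of all 4 diamonds include 0.

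Below the filter, miR-7706 and miR-1908-5p had 58 and 51 reads. The sequence of miR-7706 covers bases 85380639 to 85380662 of chromosome 15, inside an exon of AKAP13, which encodes an anchoring protein for protein kinase A. Its reads were 7, 9 and 8 in EV_soft and 22, 7 and 5 in EV_stiff, and the high mean of EV_stiff came from replicate 1 alone, at 722 CPM against 248 and 178 in the other EV_stiff libraries. The pooled rate of miR-7706 in EV_stiff was 2.41 times that of EV_soft. Its 95% counting interval, from 1.39 to 4.24, leaves out the spread between libraries. In the edgeR fit with no filter its log2 fold change was 1.20 (standard error 0.62). It was not called there (adjusted p = 0.454 with the quasi-likelihood test). The sequence of miR-1908-5p covers bases 61815209 to 61815229 of chromosome 11, inside an exon of FADS1, a fatty acid desaturase gene. Its reads were 11, 5 and 11 in EV_soft and 5, 16 and 3 in EV_stiff, and again a single library, replicate 2 of EV_stiff, was high at 567 CPM against 164 and 107. For both miRNAs the 2 groups overlapped. Their spread in EV_stiff, 77.4% and 89.8% of the mean, was above the 29.7% and 35.4% that counting alone gives.

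**Figure D4:**
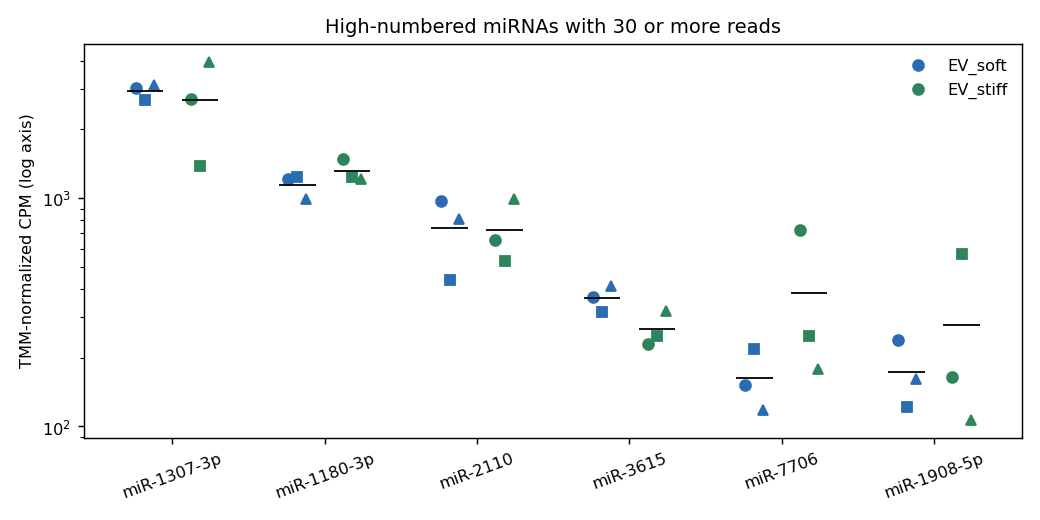
CPM (log axis) of the 6 high-numbered miRNAs with 30 or more reads in each library. Circles, squares and triangles are replicates 1, 2 and 3, black lines are means of 3 libraries, and the groups overlap for all 6, with single EV_stiff libraries apart for miR-1307-3p, miR-7706 and miR-1908-5p.

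Just under 30 reads were miR-1293 and miR-3934-5p with 29 each and miR-6510-3p with 27, where miR-1908-5p with 51 was the lowest above. The reads of miR-1293, in an intron of the actin-binding gene LIMA1, were 4, 0 and 11 in EV_soft and 4, 5 and 5 in EV_stiff. Those of miR-3934-5p were 2, 6 and 11 and then 5, 0 and 5. Those of miR-6510-3p were 8, 9 and 4 in EV_soft and 2, 4 and 0 in EV_stiff. The hairpin of miR-6510 lies in an intron of KRT15, a keratin of the basal layer of stratified epithelia, on chromosome 17 from 41517164 to 41517217. Its 21 and 6 pooled reads give a rate in EV_stiff of 0.486 times that of EV_soft, with a counting interval from 0.160 to 1.24.

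In all, 21 high-numbered miRNAs had 10 or more reads, and EV_soft and EV_stiff were apart in CPM for 2 of them, miR-1301-3p and miR-3184-3p, which are named for this after their values were seen. Among all 204 names with 10 or more reads the share without overlap was 33.3%. Between 10 and 29 reads it was 2 of 15 high-numbered miRNAs (13.3%) and 7 of 53 lower-numbered ones (13.2%). The reads of miR-1301-3p, in an intron of the DNA methyltransferase gene DNMT3A, were 6, 3 and 8 in EV_soft and 0, 1 and 1 in EV_stiff. The pooled 17 and 2 reads give a rate of 0.200 times that of EV_soft in EV_stiff, with a 95% counting interval from 0.0224 to 0.842 that leaves out the spread between libraries. Among the 21, the only other such interval without a ratio of 1 was that of miR-7706, which was higher in EV_stiff. These intervals were not computed for the lower-numbered names. In the edgeR fit with no filter, the log2 fold change of miR-1301-3p was -2.15 (standard error 1.37). It was not called there (adjusted p = 0.617 with the quasi-likelihood test).

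Among the miRNAs found at 2 arms of a hairpin, 10 hairpins of the class had both arms in the table, matched by name. The arms of miR-1307 were the most unequal, at 696 and 4 reads. In the others the arm with more reads had at most 19, as for miR-3591 with 19 and 2, miR-1910 with 14 and 6 and miR-3127 with 8 and 5. Genes of the miRNA machinery host miR-1306-3p, in an exon of DGCR8, and miR-3173-5p, in an intron of DICER1. The first had 2, 3 and 2 reads in EV_soft and 1, 0 and 1 in EV_stiff, and the second had 3 reads in all.

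Short lists written by hand from general knowledge, which do not cover the class, differed in how many reads they held. The list of names with a hairpin of the same number in other mammals had 8 members in the table, with 488 reads in EV_soft and 247 in EV_stiff, and miR-1307-3p gave 463 and 233 of these. Of the list of mirtrons, miR-1224-5p, miR-1226-3p and miR-1238-3p were in the table with 1 read each. Of the list of names that lie in other RNAs or in repeats, miR-1273c of Alu sequence and miR-1291 within a small nucleolar RNA had 1 read each. The other members were not searched for mirtrons or repeats, and their overlap with genes of small nucleolar and similar RNAs was not counted.

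Some high-numbered miRNAs are encoded on the opposite strand of a lower-numbered miRNA, so that the sequence of one is the reverse complement of the other. The pairs shown are those of the 2 members with the most reads whose partner was in the table, with the seed in capitals.
miR-3074-5p: gUUCCUGCugaacugagccag
miR-24-3p: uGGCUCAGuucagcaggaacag
miR-3184-3p: aAAGUCUCgcucucugccccuca
miR-423-5p: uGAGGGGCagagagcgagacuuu
Over 20 of its 21 bases, miR-3074-5p was complementary to miR-24-3p, and miR-3184-3p was so to miR-423-5p over all 23. In all, 4 high-numbered miRNAs had an opposite-strand partner in the table numbered below 1000, and they had 36 reads, 18 in each group. For miR-3591-5p, the most abundant opposite-strand member with 19 reads, and for miR-3065-3p and miR-3065-5p, the partner was not a name of the table. The same held for miR-3190-3p, whose partner, miR-3191-5p, is itself numbered above 1000. The pair of miR-3184 was found from coordinates after the values were seen.

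The reads of miR-3074-5p were 3, 3 and 3 in EV_soft and 1, 5 and 2 in EV_stiff, and those of miR-24-3p were between 923 and 2032 in every library, so that miR-3074-5p held 0.218% as many. The reads of miR-3184-3p were 2, 0 and 4 in EV_soft and 4, 2 and 2 in EV_stiff, or 0.249% of the 5633 reads of miR-423-5p. Its CPM did not overlap between the groups and was higher in EV_stiff, with 6 and 8 pooled reads (ratio of the rates 2.27, counting interval from 0.690 to 7.92). Its partner miR-423-5p rose in EV_stiff (log2 fold change 1.18, standard error 0.15, adjusted p = 0.000359 with edgeR's quasi-likelihood test). The partner of miR-3074-5p, miR-24-3p, was not called (log2 fold change 0.26, standard error 0.09, adjusted p = 0.0647 with the same test). Whether reads of the partner were counted under these names was not tested. For miR-3591, which lies opposite miR-122, the 5p arm had 2, 5 and 2 reads in EV_soft and 2, 4 and 4 in EV_stiff, and the 3p arm had 2 reads, both in EV_stiff replicate 2.

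A seed shared with a lower-numbered name of the table was found for 3 of the high-numbered miRNAs that had a RefSeq sequence. These were miR-4429 with the miR-320 family, miR-3184-5p with miR-423-5p and miR-1271-5p with miR-96-5p. The first is shown beside miR-320b, miR-320c and miR-320d because it shares their first 10 bases.
miR-4429: aAAAGCUGggcugagaggcg
miR-320b: aAAAGCUGgguugagagggcaa
miR-320c: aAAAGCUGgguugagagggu
miR-320d: aAAAGCUGgguugagagga
From miR-320c and miR-320d, miR-4429 differed by 3 edits each, and from miR-320b by 4. It had 4, 3 and 6 reads in EV_soft and 0, 2 and 4 in EV_stiff, against 2298 reads for the 3 family members shown, and the groups overlapped. Another member of the family, miR-320a, was far more abundant, with a mean of 83233 CPM. The other 2 of the 3 had 3 reads (miR-3184-5p) and 2 reads (miR-1271-5p).

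Beyond abundance, the class differed from the lower-numbered miRNAs in base composition and in its place in the genome, given here as descriptions. A RefSeq sequence was matched for 136 of the 150 high-numbered miRNAs and for 275 of the 319 lower-numbered names. The median GC content was 59.1% against 47.8%, and 62 of the 136 (45.6%) had 60% or more GC against 12.4%. Weighted by reads the contrast was larger, 66.0% against 45.8%, where the lower-numbered value leaves out miR-320a, which had no matched sequence. The larger contrast came from the 6 members with 30 or more reads, at 69.2% per read. The matched members with fewer reads gave 57.9%. Among names with 1 to 9 reads alone the medians were also 59.1% and 47.8%. The length was 22 bases at the median in both.

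**Figure D5:**
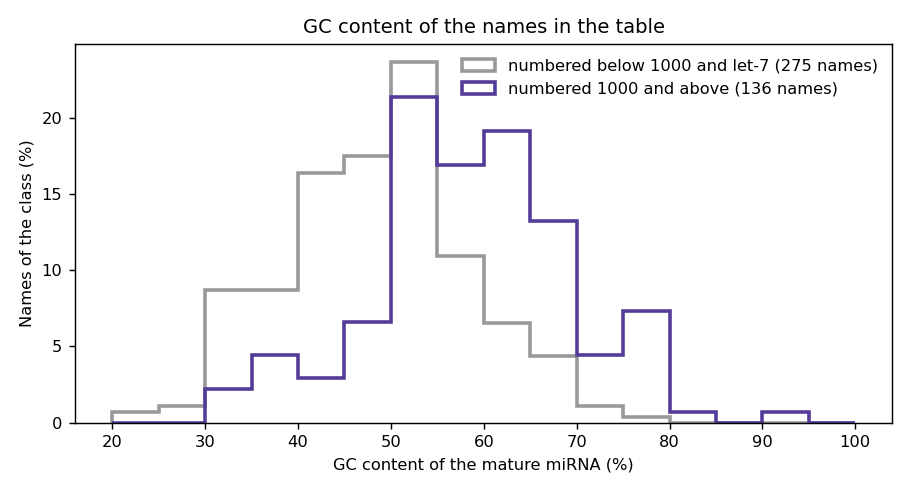
GC content of the mature sequence (x axis, in bins of 5 percentage points) for high-numbered and lower-numbered miRNAs of the table, as a percentage of the names in each class (y axis). The high-numbered miRNAs lie further to the right, with a median of 59.1% against 47.8%.

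Of the 136, 103 (75.7%) lay within a protein-coding gene on the same strand in GENCODE 44, against 49.5% of the lower-numbered names. Only 8 (5.88%) lay in a long noncoding RNA gene and in no protein-coding gene, against 36.7%. An intron held 78 of the 136 (57.4%) and an exon 33 (24.3%), where an exon of any transcript counts. The shares of the lower-numbered names were 56.4% and 29.8%. The 6 with 30 or more reads were all in protein-coding genes, and 5 of them in exons, miR-1180-3p being the one in an intron.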

How the data were processed

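Small RNA was sequenced from EVs in 6 libraries. The authors deposited raw read counts of each miRNA name per library, made with the exceRpt pipeline for quality control and features defined by RefSeq, on build hg38 per the labels. The aligner is not given in the sources used here, and no removal of PCR duplicates is stated. Groups and replicate numbers came from the sample titles. The members, lists and tests were chosen with earlier results of these data known. The rule for names took members with 30 or more reads, the 3 just below, any called, other arms, and up to 4 members of each list with 10 or more reads. Other members (miR-1301-3p, miR-3184-3p, miR-4429 and others that share a seed, list members with fewer reads, and those of the closing observations) were named after their values were seen.

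Counts of all names were fitted in R 4.3.3 with edgeR 4.0.16 (filterByExpr, TMM, quasi-likelihood test, Benjamini-Hochberg adjustment, no replicate block). Shares and numbers of names are sums over members and were given no p. Numbers at equal depth are exact hypergeometric expectations. Rates of pooled reads carry exact binomial intervals (95%), for counting error only. Sequences and positions came from RefSeq on GRCh38.p14, host genes from GENCODE 44. The fitting procedure was tested on simulated data. Alternatives were DESeq2 1.42.0, limma 3.58.1 (voom), edgeR's likelihood ratio test, other scalings and filters, fits with a replicate block, and fits that dropped each library in turn.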

Additional observations from a re-analysis of the deposited data

How the results depend on the processing

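Of the high-numbered miRNAs, 0 were called in 15 of the 16 alternatives and 1 when all libraries were given equal size. That scaling called 57 miRNAs in all, 0 higher and 57 lower, and moved the median log2 fold change of the tested miRNAs to -0.89. It called miR-1307-3p at -0.99 (adjusted p = 0.00677 with edgeR) and turned miR-1180-3p to -0.61. The sign of miR-2110 turned to 0.020 with DESeq2, 0.014 with RLE and 0.024 with upper quartile factors, and without single libraries it was between -0.32 and 0.18. Without single libraries miR-1307-3p was between -0.51 and 0.19, the latter without EV_stiff replicate 2. With library size only, the 19 calls over all miRNAs became 8 higher and 11 lower from 11 and 8. The difference in summed share (0.00577 percentage points) was between -0.0389 and 0.0775 without single libraries, and 0.555 with miR-1246 and miR-1290 added. The difference of -11 names with a read was -4.33 for names with at least 3 reads and 0.952 at equal depth, and between -14.2 and -5.67 without single libraries. The pooled ratio of 0.592 was 1.01 once counts were scaled to library totals (CPM).

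With a replicate block, 0 high-numbered miRNAs and 16 miRNAs in all were called. Deviations of samples with the same number correlated at -0.13, 0.13 and -0.03, so the replicate numbers were not taken to pair the samples. The depth left 146 of the 150 high-numbered miRNAs below the filter, and for the 4 tested each 95% interval of the log2 fold change included 0.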

Other observations

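In the fit to all names with a read, 0 of 149 high-numbered miRNAs and 15 of 464 names in all (3.23%) were called. Of the 149, 128 had only 1 to 9 reads, so a call was hardly possible for them. The 2 lowest unadjusted p of the 149 were 0.0438 and 0.0446, from edgeR's quasi-likelihood test. How many of all 464 had a p as low was not counted. These 2 values belonged to miR-3125, with 0 reads in EV_soft and 5 in EV_stiff, and to miR-6877-5p, also with 0 and 5. Both had an adjusted p of 0.406. All 5 reads of miR-6877-5p lay in replicate 1 of EV_stiff, while those of miR-3125 were 3 in replicate 1 and 2 in replicate 2. Of the 87 high-numbered miRNAs seen in a single library, 14 had 3 or more reads there. EV_soft replicate 3, the library with the most reads, held 6 of the 14, EV_stiff replicate 3 held 3, and EV_soft replicate 1 held 0. With 5 reads each, miR-3065-3p and miR-4671-3p were seen in EV_soft replicate 3 alone.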
